A study of Mus musculus with 2 samples.

Results

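The mRNAs of the mitochondrial ribosomal proteins were followed in RNA that anti-HuR antibody had recovered from epididymal white adipose tissue (eWAT). HuR is the RNA-binding protein encoded by Elavl1. They were taken as every gene whose symbol is Mrpl or Mrps followed by digits alone, which gave 73 genes among the 38396 rows of the table. Symbols with a letter after the digits, and ribosomal proteins that carry other names, were outside this rule and are given separately. The 2 RNA immunoprecipitation (RIP) libraries came from 6-week-old mice, 1 from control mice with both HuR alleles floxed and no Cre (HuR f/f), and 1 from HuR-FKO mice, in which the same floxed alleles are combined with AdipoQ-Cre. The floxed line had been backcrossed to C57BL/6, and the controls were littermates. Cre under the adiponectin promoter removes HuR from adipocytes, so the other cells of the fat pad keep it. The sources used here do not say whether RNA of several animals was pooled for the RIP. With a single library for each genotype, none of the differences could be tested. Neither input nor IgG RNA was analysed here, so binding to HuR cannot be told apart from the amount of an mRNA, and fewer cells of a type cannot be told apart from less RNA per cell.

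Mitochondria keep their own ribosomes, which translate the few proteins encoded by mitochondrial DNA, all of them parts of the oxidative phosphorylation machinery. The ribosomal RNAs are made in the mitochondrion, whereas all the ribosomal proteins are nuclear-encoded, translated in the cytosol and imported. Many of them descend from the ribosomal proteins of the bacterial ancestor, and the rest were added in the mitochondrial lineage. HuR binds AU-rich and U-rich stretches, mostly in 3′ UTRs, and is best known for stabilising the mRNAs that carry them. White adipocytes gain mitochondria as they differentiate.

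Because the AUUUA pentamer (ATTTA in the DNA alphabet) is the core of the classical AU-rich element, it was looked up first. The 3′ UTR of the principal transcript in GENCODE M21 was known for 72 of the 73 genes, with a median length of 328 bases. ATTTA was present on the sense strand in 39 of the 72 (54.2%). The windows of 30 bases shown here come from the genes with the highest ratio of control to HuR-FKO among those with a pentamer (Mrpl47, Mrps5, Mrpl18), from those with the lowest (Mrps26, Mrps10, Mrpl35), from Mrps17, with most pentamers, and from Mrpl3, one of 3 genes tied next to it with Mrpl51 and Mrps25. Each holds a pentamer, in capitals, at the same fixed place and is read 5′ to 3′ on the transcript. Among such windows of that 3′ UTR, the one with most T is shown.
Mrpl47: gtagtgatttttATTTAgttttgtagccta
Mrps5: tagactagtcttATTTAcctttaattggtg
Mrpl18: gactgaaaacttATTTAaagttagcttctt
Mrps26: caccttggtctgATTTAagtttgttttggt
Mrps10: tattttgttcttATTTAtttatccatccat
Mrpl35: aatttttttttaATTTAtccatttgaagcc
Mrps17: tgatttttcaaaATTTAttgtgtgtgtgtc
Mrpl3: atagtttattatATTTAttttatttattta
In mm10 these windows lie at chr3:32726934-32726963 (minus strand), chr2:127604579-127604608 (plus), chr17:12911484-12911513 (minus), chr2:130565821-130565850 (plus), chr17:47378570-47378599 (plus), chr6:71813946-71813975 (minus), chr5:129718494-129718523 (plus) and chr9:105078292-105078321 (plus), in the same order. The 3′ UTRs hold 6, 5, 2, 3, 3, 9, 13 and 10 pentamers in that order. Because all windows were chosen for a pentamer and for most T, their similar make-up at both ends of the range of ratios follows from that choice. Ratios of genes with and without the pentamer are given after the values.

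Before the ribosomal proteins, the targeted gene and the tissue were checked. Elavl1 was at 16.6 FPKM (fragments per kilobase of transcript per mapped fragments of that library) where the label says control and at 26.1 FPKM where it says HuR-FKO. This 1.57-fold excess in HuR-FKO goes against the label on the deposited scale and as TPM over all rows, and turns with the 3 other scalings tried (log2 ratio 1.498 after median centring, 1.32 after upper-quartile scaling and 1.15 as TPM over coding rows). Control and HuR-FKO therefore stand below for the libraries so labelled. All 7 adipocyte markers were above 0 in both libraries, with summed levels of 8460 FPKM in control and 28712 FPKM in HuR-FKO. Of the markers of other cells, macrophage genes summed to 9.09 and 29.8 FPKM with Cd68 at 0 in both, endothelial genes to 10.9 and 18.05 FPKM, and the 3 epididymal genes were at 0 in both. Red cell genes, 2 found of 3 listed, summed to 254 and 469 FPKM, and the lowest value among them was 8.14 and 1.92 FPKM. The 3 testis genes were at 0 in control, and Prm1 alone was above 0 in HuR-FKO, at 7.73 FPKM. Brown fat genes summed to 0.129 and 6.03 FPKM, with Ucp1 at 0 in both. Every marker list above 0 thus summed higher in HuR-FKO. So did all coding genes above 0, at 123527 FPKM in control and 429751 FPKM in HuR-FKO. The part of cell make-up in the ratios below was not tested. Ratios are given as log2 (control / HuR-FKO) with values under 0.1 FPKM set to 0.1, so that a negative ratio means a higher level in HuR-FKO.

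The mitochondrial ribosomal protein mRNAs were recovered in both libraries and were, on the deposited scale, mostly more abundant in HuR-FKO. Of the 73 genes, 72 were above 0 in control and all 73 in HuR-FKO. In control the levels ran up to 121 FPKM with a median of 6.54 FPKM. In HuR-FKO they ran from 0.697 to 464 FPKM with a median of 15.95 FPKM. The gene listed at 0 in control was Mrps31, a small-subunit protein, at 0.893 FPKM in HuR-FKO. An exact 0 in this kind of table can be a failed estimate. The mitochondrial 16S ribosomal RNA mt-Rnr2 was likewise listed at 0 in control and at 16470 FPKM in HuR-FKO, while mt-Rnr1 of the small subunit was at 9036 and 1798 FPKM.

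**Figure D1:**
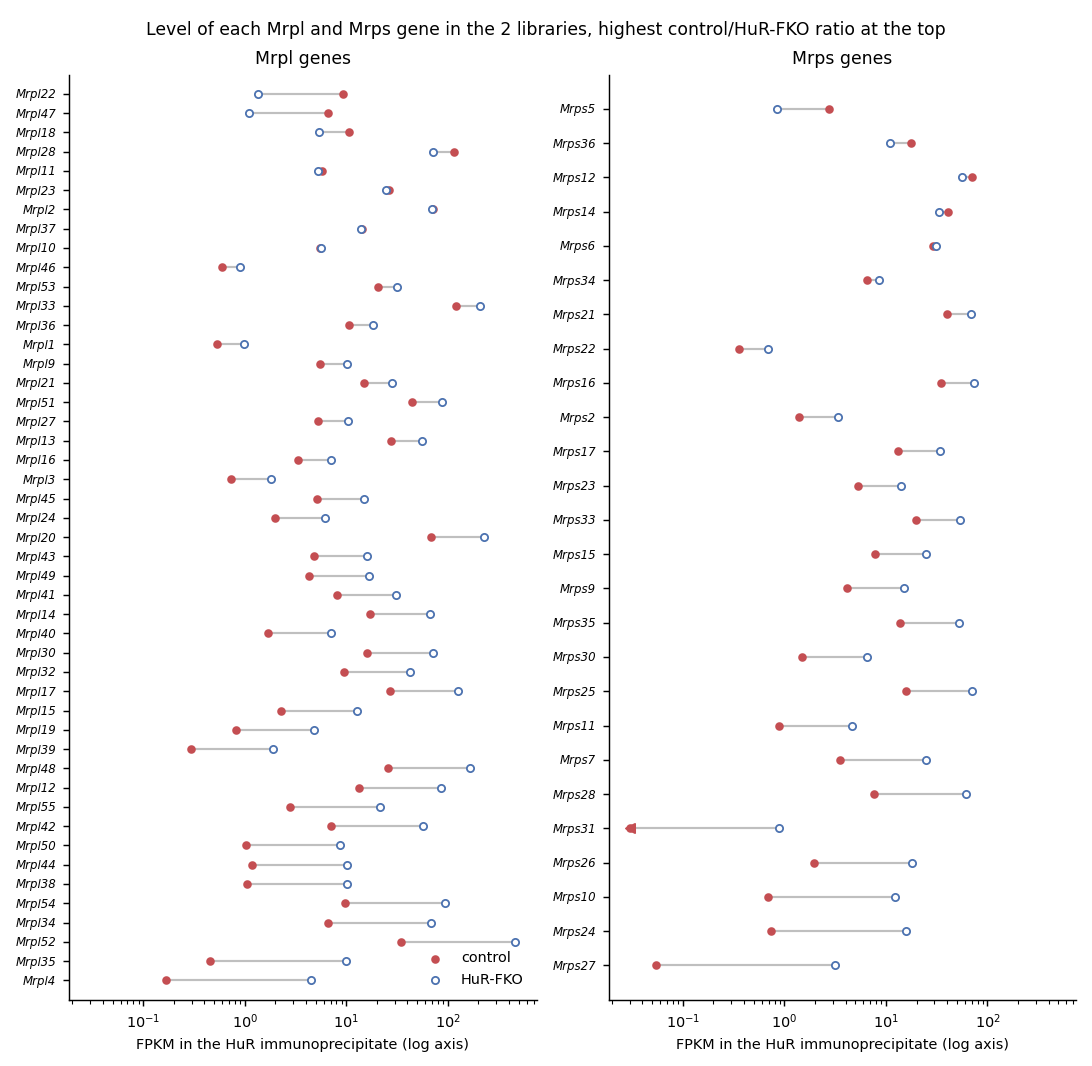
FPKM in the HuR immunoprecipitate (log axis) of each Mrpl gene (left) and Mrps gene (right), with control as filled points, HuR-FKO as open points and a grey line joining the 2 values of a gene. Genes are ordered by their ratio. The triangle marks Mrps31, listed at 0 in control and drawn at the left edge. The open point is to the right of the filled one for 61 of the 73 genes on the deposited scale.

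Direction split 12 to 61. A total of 12 genes (16.4%) were higher in control, where 11.7% of the 14711 protein-coding genes above 0 in either library were. By 2-fold or more, 3 genes (4.11%) were higher in control, beside 5.99% of all genes. In the other direction 46 genes (63.0%) were higher in HuR-FKO by 2-fold or more, beside 68.2% of all genes, and 24 lay within 2-fold. The median log2 ratio was -1.66, that is 3.16-fold higher in HuR-FKO, beside -1.92 for all these genes. On these counts the ribosomal proteins lay close to the background of all coding genes.

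The counts were also taken with filters on level, which did not move them in a single direction. When both libraries had to reach 5 FPKM, 9 of 42 members (21.4%) were higher in control, beside 10.4% of the 2232 genes that met the same condition, and the median log2 ratios were -1.04 and -1.52. With 5 FPKM required in either library, 61 members and 5572 genes remained, and 11 members (18.03%) were higher in control beside 7.41% of genes. These shares depend on how the libraries are scaled, since each scaling adds 1 constant to all log2 ratios. The share of the 61 higher in control was 67.2% after median centring (47.7% of the 5572 genes), 62.3% after upper-quartile scaling (42.4%), 54.1% as TPM over coding rows (37.1%) and 3.28% as TPM over all rows (2.40%). On the deposited scale, an exact binomial interval for the 18.03% ran from 9.36% to 29.98%. It treats genes of 1 library pair as if they were independent, so it is no test against the 7.41%. By 2-fold or more, 2 of the 61 (3.28%) were higher in control, beside 3.21%, and 38 (62.3%) in HuR-FKO, beside 82.4%. Their median of -1.66 was 0.56 above the median of the 5572 genes, -2.22. Relative to that median, 25 of the 61 (41.0%) lay at least 2-fold toward control, beside 21.8%, and 7 (11.5%) at least 2-fold toward HuR-FKO, beside 25.0%. Without a filter and against the same median, 29 of 73 (39.7%) lay at least 2-fold toward control, beside 35.4% of the 14711 genes. Toward HuR-FKO they were 9 (12.3%), beside 21.7%, so the contrast on the control side was largely one of the filter. At 20 FPKM in either library 5 of 33 members (15.2%) were higher in control, and the share over all genes at this filter is not given here. Their median of -1.72 was 0.37 above the median of all genes at the same filter. A gene can pass a filter on either library through the one in which it is high, so these shares describe the genes that passed and not all 73.

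**Figure D2:**
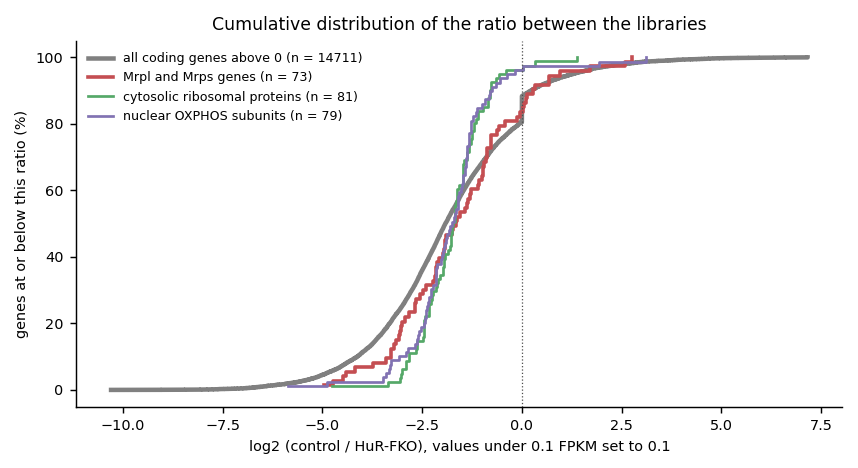
Cumulative share of genes (vertical axis, %) at or below each log2 ratio of control to HuR-FKO (horizontal axis) for all coding genes above 0 (grey), the Mrpl and Mrps genes (red), cytosolic ribosomal proteins (green) and nuclear OXPHOS subunits (violet). The step of the grey line at 0 comes from genes under 0.1 FPKM in both libraries. The curves meet near the red median of -1.66, around which the red curve is flatter than the green and violet ones and steeper than the grey one.

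The 3 mRNAs at least 2-fold higher in control (4.11%, beside 5.99% of all coding genes above 0) encode proteins of the peptide exit tunnel and the mRNA channel. Other members of these groups went the other way. At least 2-fold higher in HuR-FKO were 3 of the 6 exit tunnel genes and 3 of the 5 around the decoding site and mRNA channel. Mrpl22 (ENSMUSG00000020514, chromosome 11, 58171661 to 58179565, mm10), whose protein lines the tunnel through which the new peptide leaves the ribosome, was at 9.22 FPKM in control and 1.36 FPKM in HuR-FKO. Its level was 6.81-fold higher in control, the highest ratio of all 73. Mrpl47 (ENSMUSG00000037531, chromosome 3, 32725397 to 32737147), a protein at the mouth of the same tunnel, was at 6.61 and 1.10 FPKM, 6.04-fold higher in control. Mrps5 (ENSMUSG00000027374, chromosome 2, 127587222 to 127606829), which borders the path of the mRNA into the small subunit, was at 2.75 and 0.841 FPKM, 3.26-fold higher in control. All 3 were at or under 1.36 FPKM in HuR-FKO, and Mrps5 lay under 5 FPKM in both libraries.

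The other genes on the control side differed by less than 2-fold. Mrpl18, which sits in the central protuberance of the large subunit, was at 10.6 FPKM in control and 5.43 FPKM in HuR-FKO. Mrpl28, a large-subunit protein of bacterial origin, was among the most abundant of the set at 115 and 71.6 FPKM. Mrps12, a protein of the decoding centre, was at 70.3 and 56.1 FPKM. For these genes the difference was 1.95-, 1.61- and 1.25-fold. Mrps14 was at 41.1 and 33.6 FPKM and Mrpl11, at the base of the factor-binding stalk, at 5.80 and 5.27 FPKM. Mrpl23 (26.5 and 24.8 FPKM), Mrpl2 (71.3 and 69.1 FPKM), whose protein lies close to the peptidyl transferase centre, and Mrpl37 (14.2 and 13.9 FPKM) differed by at most 1.07-fold, which a single pair of libraries cannot tell from no difference. Mrps36 was at 17.5 and 10.97 FPKM. Despite its name it is known as a component of the 2-oxoglutarate dehydrogenase complex of the citric acid cycle, and it was left out of the subunit counts below.

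At the other end, 7 of the 8 largest differences toward HuR-FKO among genes whose lower value reached 1 FPKM belonged to large-subunit proteins, which make up 48 of the 72 subunit genes. Mrpl52, a mitochondrion-specific protein, was at 35.0 FPKM in control and 464 FPKM in HuR-FKO, 13.3-fold higher and the most abundant of the set in that library. Mrpl34, a small protein of bacterial origin, was at 6.54 and 68.9 FPKM, and Mrpl54 at 9.68 and 94.2 FPKM. These are differences of 10.5- and 9.72-fold. Mrpl38 (1.05 and 10.2 FPKM), Mrps26 (1.98 and 18.1 FPKM), Mrpl44 (1.18 and 10.1 FPKM), Mrpl50 (1.04 and 8.72 FPKM) and Mrpl42 (7.02 and 57.6 FPKM) followed, at 8.204- to 9.72-fold. Of the 13 genes below 1 FPKM in control, 5 had larger folds than these, and they rest on low control values. Mrps27 was at 0.0549 and 3.13 FPKM, Mrpl4 at 0.167 and 4.45 FPKM, Mrpl35 at 0.451 and 10.02 FPKM, Mrps24 at 0.741 and 15.7 FPKM and Mrps10 at 0.684 and 12.3 FPKM.

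The most abundant mRNAs did not share a direction. In control the top 5 were Mrpl33, Mrpl28, Mrpl2, Mrps12 and Mrpl20, and in HuR-FKO they were Mrpl52, Mrpl20, Mrpl33, Mrpl48 and Mrpl17. Mrpl33, a large-subunit protein of bacterial origin, was at 121 and 207 FPKM, 1.71-fold higher in HuR-FKO. Mrpl20, a bacterial-type protein of the large subunit, was at 68.5 and 225 FPKM. Mrpl48 and Mrpl17 were at 25.98 and 165 FPKM and at 27.0 and 127 FPKM. Across the 73 genes the levels of the 2 libraries ranked similarly, with a Spearman coefficient of 0.80, given as a description because both values of a gene share its length and mappability. Genes nearest to the median ratio of the 5572 genes were Mrpl17, Mrpl32 (9.43 and 42.8 FPKM), Mrps25 (15.9 and 71.2 FPKM) and Mrpl30 (16.2 and 71.3 FPKM).

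The genes were also counted by subunit and by evolutionary origin. The 48 large-subunit proteins, Mrps30 among them because its protein is found there, had a median log2 ratio of -1.73, with 8 genes higher in control and 29 (60.4%) higher in HuR-FKO by 2-fold or more. The 24 small-subunit proteins had a median of -1.54, with 3 genes higher in control and 17 (70.8%) higher in HuR-FKO by 2-fold or more. Of the 45 genes with a bacterial counterpart, 10 were higher in control, 25 (55.6%) were at least 2-fold higher in HuR-FKO and the median was -1.27. Of the 27 mitochondrion-specific genes, Mrpl37 alone was higher in control, by 1.02-fold, 21 (77.8%) were at least 2-fold higher in HuR-FKO and the median was -2.07. Over all coding genes above 0, 68.2% were at least 2-fold higher in HuR-FKO and 11.7% were higher in control. The shares higher in control were 16.7% for the large and 12.5% for the small subunit. They were 22.2% for genes with a bacterial counterpart and 3.70% for mitochondrion-specific genes. The bacterial and mitochondrion-specific classes had medians of 7.63 and 5.13 FPKM in control and of 21.5 and 15.04 FPKM in HuR-FKO. Their ranges overlapped over most of their length, and neither the classes nor the subunits were tested against each other. Mrps30 itself was at 1.498 and 6.55 FPKM.

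**Figure D3:**
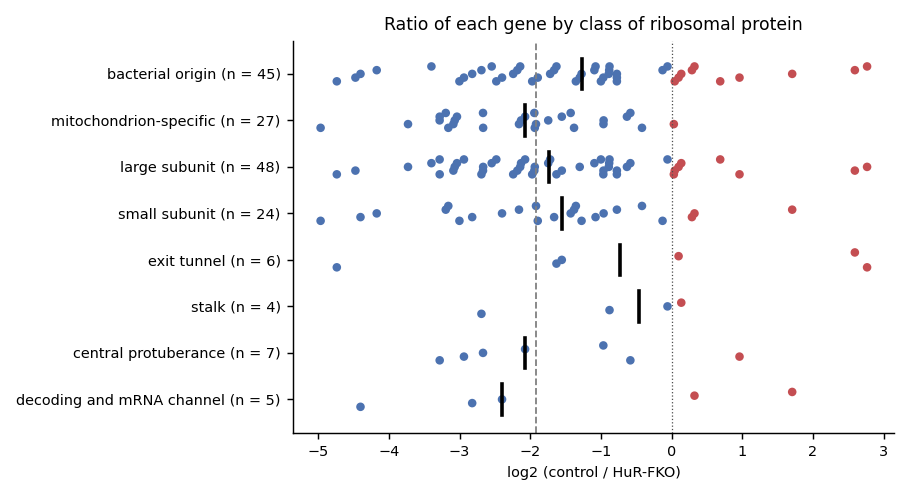
log2 ratio of control to HuR-FKO (horizontal axis) of each gene by origin, subunit and structural group of its protein. On the deposited scale red points are higher in control and blue points higher in HuR-FKO, black bars are medians, the dotted line is equality and the dashed line is the median of all coding genes above 0 (-1.92). Points are spread vertically to keep them apart. The bacterial class holds 10 red points (22.2%) and the mitochondrion-specific class 1 (3.70%), beside 11.7% of all coding genes above 0.

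Within the large subunit, the peptide exit tunnel held both extremes. Mrpl22 and Mrpl47 were the highest of all, as given above, and Mrpl23 was near equal. Mrpl24, next to the tunnel exit, was at 2.00 and 6.18 FPKM, and Mrpl45, a mitochondrion-specific protein that helps to anchor the ribosome at the inner membrane, at 5.13 and 15.04 FPKM. These were 3.09- and 2.93-fold higher in HuR-FKO. Mrpl4, part of the tunnel wall, was 26.7-fold higher in HuR-FKO from a control level of 0.167 FPKM. The mRNAs of 1 structural group therefore spanned nearly the whole range of ratios.

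The stalks, which bind translation factors and the departing tRNA, stayed closer to equality except for 1 member. Mrpl10, the anchor of the factor-binding stalk, was at 5.46 and 5.69 FPKM. Mrpl1, of the other stalk, was at 0.534 and 0.982 FPKM, 1.84-fold higher in HuR-FKO. Mrpl12, which recruits the elongation factors, was at 13.2 and 85.4 FPKM, 6.45-fold higher in HuR-FKO. Mrpl11 was near equal, as given above.

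The central protuberance, where the large subunit contacts the small one, had 7 genes and a median log2 ratio of -2.07. Mrpl18 was the single gene higher in control. Mrpl46 was at 0.597 and 0.894 FPKM, Mrpl27 at 5.28 and 10.3 FPKM, Mrpl40 at 1.68 and 7.05 FPKM and Mrpl55 at 2.81 and 21.5 FPKM. Together with Mrpl48 and Mrpl38, given above, 4 of the 7 (57.1%) were at least 2-fold higher in HuR-FKO, beside 68.2% of all coding genes above 0. Around the decoding site and mRNA channel of the small subunit, Mrps5 and Mrps12 were higher in control. The other genes of that group were higher in HuR-FKO by at least 5.27-fold. Mrps7 was at 3.54 and 25.04 FPKM and Mrps11 at 0.878 and 4.63 FPKM, beside Mrps24.

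Larger families of the same cells were more uniform. The 81 cytosolic ribosomal protein genes above 0 had a median log2 ratio of -1.72, with 3 genes higher in control, and the 79 nuclear-encoded subunits of oxidative phosphorylation (OXPHOS) above 0 had a median of -1.76, also with 3 higher in control. The mitochondrial ribosomal proteins had nearly the same median, -1.66, with 12 of 73 higher in control. Spread over genes was smaller in the larger families, with standard deviations of the log2 ratio of 0.873 and 1.17 beside 1.58. They were also more abundant, with median control levels of 144 and 47.2 FPKM beside 6.54 FPKM. Neither spread nor level was tested between the families.

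Proteins of the mitochondrial ribosome with names outside the rule went mostly the same way. Of 10 such genes, 9 (90%) were at least 2-fold higher in HuR-FKO, beside 68.2% of all coding genes above 0. The median of the 10 was -2.57, beside -1.92. Mrps18c, of the small subunit, was at 9.28 and 177 FPKM, Gadd45gip1, of the large subunit, at 1.06 and 12.6 FPKM and Chchd1, of the small subunit, at 4.47 and 36.8 FPKM. The exception was Ict1, a peptidyl-tRNA hydrolase built into the large subunit, at 31.6 FPKM in control and 5.12 FPKM in HuR-FKO, 6.17-fold higher in control.

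The rest of the machinery for mitochondrial gene expression was looked up by name, in lists that had been drawn up with earlier results of these libraries known. Of 76 listed genes, those 10 included, 72 were found and 69 were above 0. Of these 11 were higher in control, 53 were at least 2-fold higher in HuR-FKO and the median was -2.29. Among the 13 translation factors 2 were higher in control and 9 in HuR-FKO by 2-fold or more. Tufm, the mitochondrial elongation factor that delivers aminoacyl-tRNA, was at 1.28 and 7.05 FPKM, Taco1, a translational activator, at 0.765 and 3.26 FPKM and Mtif3, an initiation factor, at 1.78 and 5.64 FPKM. In assembly and rRNA modification 4 of 22 were higher in control and 16 in HuR-FKO by 2-fold or more, with Ftsj2, an rRNA methyltransferase, at 0.219 and 8.73 FPKM, Gtpbp5, an assembly GTPase, at 0.718 and 6.61 FPKM and the helicase Dhx30 at 2.20 and 18.4 FPKM. In transcription and RNA processing 1 of 10 was higher in control and 8 in HuR-FKO by 2-fold or more, with the RNA helicase Supv3l1 at 0.419 and 14.9 FPKM, the membrane insertase Oxa1l at 0.698 and 5.71 FPKM and the tRNA-processing enzyme Elac2 at 1.28 and 6.72 FPKM. Of the 14 mitochondrial tRNA synthetases above 0, among 17, 3 were higher in control and 11 in HuR-FKO by 2-fold or more, with Rars2 at 0.434 and 10.4 FPKM, Fars2 at 0.491 and 11.4 FPKM and Tars2 at 0.243 and 4.05 FPKM. Each of these 5 groups thus leaned to HuR-FKO, as did 68.2% of all coding genes above 0 by the same 2-fold rule. The share higher in control was 15.9% of the 69 listed genes, beside 11.7% of all coding genes above 0.

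Among members the ratio moved with the control level, though hardly with the mean level of both libraries. Among the 13 members under 1 FPKM in control none was higher in control and the median was -2.67. There were 16 members from 1 to 5 FPKM with a median of -2.10 and 1 gene higher in control, 28 from 5 to 20 FPKM with a median of -1.40 and 6 higher, and 16 at 20 FPKM or more with a median of -0.77 and 5 higher. The control level is part of the ratio, so this order is built in to some degree. Against the mean of both libraries the trend was nearly absent among members, with a Spearman coefficient of 0.06 over 73 genes, and was 0.24 over the 5572 genes. Within eighths of the 5572 genes by mean level the members lay 0.40 (log2, median) above the genes of their own eighth, and within eighths by transcript length 0.38 above, beside 0.56 with no such matching. Both comparisons left out Mrpl33, for which no GENCODE transcript was matched, and were added after the values had been seen.

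**Figure D4:**
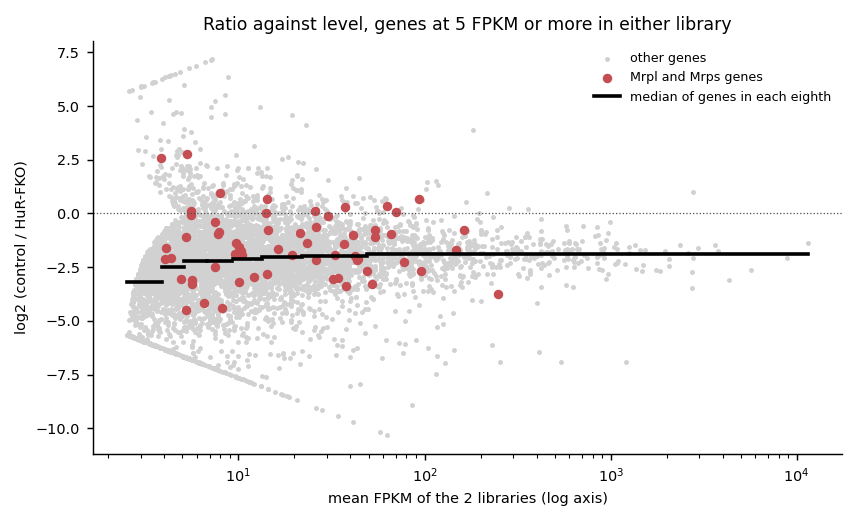
log2 ratio of control to HuR-FKO (vertical axis) against the mean FPKM of both libraries (horizontal, log axis) for the 5572 genes that reached 5 FPKM. Grey points are other genes, red points the Mrpl and Mrps genes, and black bars the median of all genes in each eighth of the level. The bars rise from -3.19 in the lowest eighth to -1.89 in the highest, and red points lie on both sides of them.

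AU-rich pentamers did not mark the genes that were higher in control, though filter and 3′ UTR length changed the comparison. Over all members, genes with ATTTA had a median log2 ratio of -1.72 and those without it -1.66. With 5 FPKM in either library the medians were -1.92 for 31 genes with it and -1.09 for 29 without it. Of these 12.9% and 24.1% were higher in control, beside 7.41% of all genes at this filter. Over all those genes the medians were -2.19 with it and -2.26 without. Of the 12 genes higher in control, 5 held the pentamer and 7 did not. The 5 had 3′ UTRs longer than 328 bases and the 7 did not. These differences were not tested. By 3′ UTR length, ATTTA was present in 27.8% of members at or under 328 bases and in 80.6% of the longer ones, where the shares over all genes at 5 FPKM were 20.98% and 75.8%, and 61.7% over 5523 genes of any length. The nonamer TTATTTATT, which contains the pentamer, was found in 4 of the 72 members (5.56%) beside 5.61% of genes, and none of the 4 was higher in control. A run of 7 T was found in 21 (29.2%) beside 39.6%, 3 of them higher in control. Across members the ratio ranked weakly with 3′ UTR length (Spearman coefficient -0.07) and with the number of pentamers (-0.03), both over 72 genes. Mrpl47 and Mrpl35, whose windows are printed above, stood at opposite ends with 6 and 9 pentamers in 3′ UTRs of 2197 and 3102 bases. A match to these letters is a description and not a binding site, and the RIP gives no position along the mRNA.

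**Figure D5:**
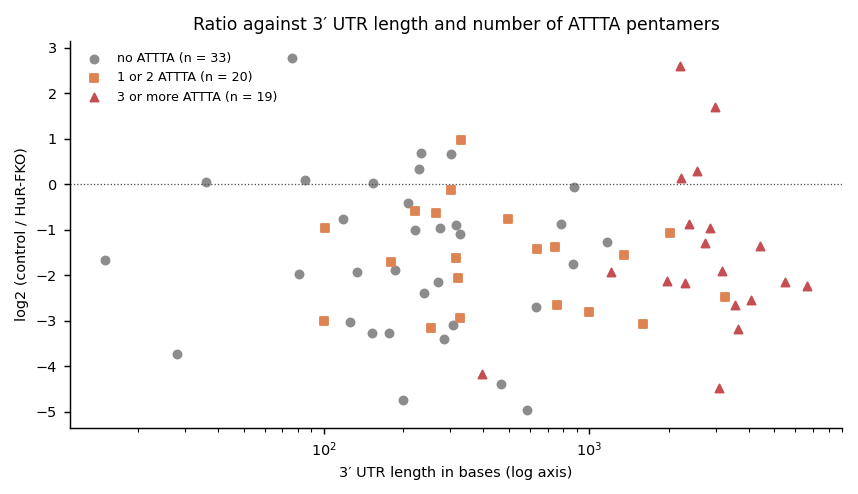
log2 ratio of control to HuR-FKO (vertical axis) against 3′ UTR length in bases (horizontal, log axis) for the 72 genes with an annotated 3′ UTR. Grey circles have no ATTTA, orange squares 1 or 2 and red triangles 3 or more. All 3 kinds are found above and below 0.

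Near-identical pseudogenes are 1 source of shared reads, looked up for these genes only. A pseudogene copy with at least 90% identity over at least 50% of the coding sequence was found for 22 of the 73 genes. Of 40 copies in all, 27 had a row in the table and 18 were above 0. The share of other genes with such a copy was not taken. The clearest case was Mrpl23, whose coding sequence is matched at 100% identity by Mrpl23-ps1 on chromosome 2 (74591330 to 74591909). Mrpl23-ps1 was at 146 FPKM in control and 664 FPKM in HuR-FKO, where Mrpl23 was at 26.5 and 24.8 FPKM. Added together they were at 173 and 688 FPKM, 3.99-fold higher in HuR-FKO, so that the direction of Mrpl23 depends on how reads were shared between the copies. For Mrps36, with several copies, the sum was 45.3 and 26.3 FPKM and stayed higher in control. Mrpl51 had the copy Gm14017 at 26.6 and 25.1 FPKM beside its own 44.9 and 87.5 FPKM, Mrps21 had Gm6181 at 16.2 and 29.9 FPKM beside 40.1 and 68.5 FPKM, and Mrps16 had Gm12244 at 5.82 and 22.1 FPKM beside 35.1 and 73.9 FPKM. Copies of the genes with the highest ratios were low or at 0 where they had a row. Gm14125, a copy of Mrpl47, was at 0.0817 and 0 FPKM, and Gm13328, a copy of Mrps5, at 0.829 and 0 FPKM. Gm6997, at 97.1% identity to Mrpl22, had no row, so no value can be set beside that gene. With the copies added, 11 of the 12 genes stayed higher in control.

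Genes on the other strand are the second source of shared reads, since the sources used here do not say whether the counting used strand. Strand-specific preparation is stated for the study's RNA-seq libraries, made with the same kit, and not for the RIP libraries. Exons of 29 members overlap another gene, 2 of the 12 higher in control and 27 of the 61 higher in HuR-FKO. The share over all genes was not taken. Mrpl47 overlaps Ndufb5, a subunit of complex I, which was at 31.0 FPKM in control and 68.5 FPKM in HuR-FKO, and Mrpl18 overlaps Tcp1, a chaperonin subunit, at 2.13 and 15.5 FPKM. Both partners were higher in HuR-FKO while the ribosomal gene was higher in control. Mrps11 and Mrpl46 overlap each other and were both higher in HuR-FKO. Mrps24 shares its strand with Urgcp, at 0.0926 and 4.20 FPKM, and Mrps34 with Nme3, at 18.04 and 28.3 FPKM. Values of all these genes may hold fragments of their partners.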

How the data were processed

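RNA from the anti-HuR immunoprecipitates (Magna RIP kit, NEBNext Ultra libraries) was sequenced, and the values were deposited by the authors as FPKM per gene, 1 column per library. The submitters' processing notes name TopHat2 2.0.11, Cufflinks 2.1.1 and mm10. The sources used here do not name the annotation version. Deposited starts count from 0, and 43 of 72 loci equal those of GENCODE M21. Mrpl33 has an ID outside M21.

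From there, members were selected by symbol, a floor of 0.1 FPKM was applied, and log2 (control / HuR-FKO) was computed, with all rows that are protein-coding in GENCODE M21, and Mrpl33, as background. Where a filter was used, it was 5 FPKM. Named members were the 8 highest and 8 lowest ratios among genes whose lower value reached 1 FPKM, the 5 most abundant of each library, 4 next to the median ratio, 4 structural groups, and Mrps30 and Mrps36. Genes of the pathway lists were those 3 of each group with the greatest ratio in either direction, at 0.1 FPKM or above in each library. Ict1, Mrps31, Mrps27, Mrpl35, Mrps10, Mrpl37 and the genes shown for their windows, copies or overlaps were chosen after their values were seen. Members and lists were chosen with earlier results of these data known. Copies were found with BLAST 2.17.0 of coding sequences against GENCODE M21 transcripts. Alternatives were other floors, filters, scalings and member lists. Calculations used Python 3.11.15 with pandas 2.3.3, and were tested on simulated data.

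The depth of the libraries is unknown. In genes with 1 transcript, values under 0.6 FPKM came closest to whole fragments at totals of 11000000 or 22000000 for control and 18320000 or 36480000 for HuR-FKO. At these totals 40.5%, 39.7%, 31.5% and 33.6% of values were whole within 0.05, beside 10% by chance, so that fragment counts were not recovered and no counting interval is given. mRNA sequences are those of GENCODE M21 on mm10.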

Additional observations from a re-analysis of the deposited data

How the results depend on the processing

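The direction of most members rests on the scaling, because FPKM values are relative to the library they come from. In the main setting 18.03% of 61 members were higher in control, 2 of them by 2-fold or more, 38 were higher in HuR-FKO by 2-fold or more, and the median log2 ratio was -1.66. Median centring added 2.15 to every log2 ratio and turned the median to 0.49, with 67.2% higher in control, 25 of them and 8 of the others by 2-fold or more. Upper-quartile scaling added 1.98 and gave 0.31, 62.3%, 22 and 12. TPM over coding rows added 1.80 and gave 0.14, 54.1%, 18 and 14. TPM over all rows moved the ratios the other way, by -1.36, to a median of -3.02 and 3.28% higher in control. The distance between members and all genes, 0.56, cannot change with scaling, because each scaling adds 1 constant to all ratios. It depended on the filter and ranged from 0.26 with no filter to 0.62 with a filter of 1 FPKM, positive under every setting run. The median of members was -1.66 with and without the 5 FPKM filter. That of all genes moved from -1.92 to -2.22, as genes can pass through the library in which they are high. Of the 73 members, 35, 32, 27 and 9 turned under median centring, upper-quartile scaling, TPM over coding rows and TPM over all rows. Of these 15, 15, 15 and 9 had been within 2-fold. In the same order, 20, 17, 12 and 0 had differed by 2-fold or more. Those of them named by rank, abundance, nearness to the median, structural group or misleading name were Mrpl20 (0.43, 0.26 and 0.081 under median centring, upper-quartile scaling and TPM over coding rows), Mrpl24 (0.52, 0.35 and 0.17), Mrpl45 (0.60, 0.42 and 0.25), and, under median centring alone, Mrpl30 (0.0075), Mrpl40 (0.077) and Mrps30 (0.020). This list leaves out genes named only for their windows or copies, such as Mrps17, Mrpl3 and Mrps16, and the genes of the pathway lists. With a filter of 20 FPKM in either library 0 of 33 members lay 2-fold or more toward control and 21 toward HuR-FKO. With 5 FPKM in both libraries they were also 0 and 21, of 42. Shares of all genes past 2-fold at these filters and after the scalings above are not given here, so these counts have no background beside them. A filter on the mean, leaving out members that overlap another gene, and leaving out members with a pseudogene copy above 0 (chosen after seeing the data) each left 1 member 2-fold or more toward control. Pseudocounts of 0.1 or 1, the filter of 1 FPKM, leaving out Mrps36, adding the mitoribosome proteins outside the rule, and leaving out genes listed at 0 changed no count by over 1.5 times. No paired analysis was possible because each genotype has 1 library, and for the same reason no replicate could be left out.

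The limits are those of 1 library per genotype: differences between mice, tissue dissection, immunoprecipitation and library preparation cannot be told apart from genotype. Without input RNA, level and recovery cannot be told apart. The targeted gene went against its label on the deposited scale. Without fragment counts, the precision of folds that rest on low values is unknown.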
